A study of Mus musculus with 9 samples.

Results

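The enzymes that build purine and pyrimidine nucleotides from small precursors were followed in mouse glioblastoma cells and astrocytes that had been co-cultured and sorted. The genes were chosen by name, as the enzymes of de novo purine and pyrimidine synthesis, and all 10 chosen were found among the 49315 gene IDs of the count table. They are Cad, Dhodh and Umps of the pyrimidine pathway, Ppat, Gart, Pfas, Paics, Adsl and Atic of the purine pathway up to inosine monophosphate (IMP), and Impdh2 of the branch from IMP to guanine nucleotides. The rule names genes and uses no measured value, although earlier results of these data were known when they were chosen. All 10 were above the filter on low counts in the astrocytes as well as in the tumor cells.

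De novo synthesis makes nucleotides from amino acids, bicarbonate and one-carbon units on a ribose phosphate carrier, phosphoribosyl pyrophosphate (PRPP). The pyrimidine ring is closed first and then joined to PRPP, whereas the purine ring is assembled stepwise on it. Salvage enzymes instead recycle finished bases and nucleosides. Dividing cells, tumor cells included, are known for high de novo synthesis, since DNA and RNA production draws on these pools, and the pathway passes through the mitochondrion at Dhodh, which feeds electrons into the respiratory chain.

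The study asked how tumor cells that had taken up astrocyte mitochondria differ in gene expression from those that had not. SB28, a GFP-expressing mouse glioblastoma line of strain C57BL6, was grown untreated for 2 days with primary neonatal astrocytes from C57BL6 mito::mKate2 mice, in which a CAG promoter active in most cell types puts the red protein mKate2 into mitochondria. All 3 groups came from such co-cultures, so the astrocytes had also been exposed to tumor cells and no group was grown alone. The sample labels give the medium as DMEM/F12 with 2% FBS, 5% N2 supplement and 20 ng/ml EGF and FGF. The study's methods instead give 5% FBS and 1% N2 supplement for this medium. RNA libraries were made from 3 sorted samples each of SB28 cells without mKate2 signal (mKate2-), SB28 cells with it (mKate2+) and astrocytes, from 3 separate co-cultures. SB28 is 1 line, so the tumor cell libraries speak for that line only.

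The 9 libraries held between 24454561 and 39287841 counts, and levels are given in CPM, the counts-per-million unit, which scales a gene's counts by its library's total. mKate2+ replicate 2 stood apart from the other mKate2+ libraries. Its counts differed from those of mKate2+ replicates 1 and 3 by a chi-square per degree of freedom of 134 and 121, where counting noise alone gives 1, whereas replicates 1 and 3 differed by 15.8. The calls and medians of the 10 genes, and the calls of related genes in mKate2+ cells, are therefore also given without it. The astrocyte libraries differed as much from one another, with values of 74.1, 104 and 130, the larger 2 of which involve replicate 3. Astrocyte replicate 3 had the lowest level of that group for 7 of the 10 genes. Without it, 9 of the 10 genes were called higher in mKate2- and in mKate2+ cells, with median log2 fold changes of 1.05 and 1.13. Over all genes, 8392 of 13040 and 7335 of 13005 were then called in either direction, with medians of -0.010 and 0.010.

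The label of the astrocytes was checked against cell type markers. Apoe, a lipid carrier of astrocytes, was at 265 CPM in astrocytes and at most 3.22 CPM in any SB28 library. The glutamate transporter Slc1a3 was at 195 CPM and the folate enzyme Aldh1l1 at 141 CPM in astrocytes, compared with at most 2.38 and 8.48 CPM in SB28 libraries. Gfap, the astrocyte filament protein, was at 8.83, 3.42 and 19.4 CPM, and Gjb6 was at 0 in all 9 libraries. The summed level of 13 astrocyte markers was 1066, 1052 and 1745 CPM in the astrocyte libraries and between 332 and 410 CPM in the SB28 libraries, where most of it came from Gja1, which both cell types expressed. The astrocyte libraries also held RNA of other lineages. Olig1 and Olig2, which mark the oligodendrocyte lineage, averaged 362 and 194 CPM, and the collagen gene Col1a2 averaged 990 CPM. In contrast, Cx3cr1 of microglia, Rbfox3 of neurons and Cldn5 of endothelium were at 0 or below 0.05 CPM in each library. The part of these other lineages in the astrocyte levels given here was not tested.

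Promoter windows are shown first for the genes that carry a match to one of the searched motifs, because the 10 genes are compared as a group and Paics and Ppat start beside each other. RefSeq, on GRCm38.p6, gave a window of 250 bases before to 50 bases after the start for 8 of the 10 genes, and Dhodh and Pfas were not among them. Both strands were searched for the E box CACGTG, which Myc and related factors bind, for the NRF1 core GCATGCGC, and for the E2F sites TTTGGCGC and TTTCCCGC. The E box was found in 3 of the 8 windows, compared with 7.15% of all 32851 windows. The NRF1 core was found in 1 of the 8, compared with 2.71% of all windows, and an E2F site in 1 of the 8, compared with 1.56%. Capitals mark the matches, each line reads 5′ to 3′ on the gene's own strand, and a match is a stretch of letters, not a measured binding site.
Paics, chr5:76951052-76951351, plus strand, E box at -203: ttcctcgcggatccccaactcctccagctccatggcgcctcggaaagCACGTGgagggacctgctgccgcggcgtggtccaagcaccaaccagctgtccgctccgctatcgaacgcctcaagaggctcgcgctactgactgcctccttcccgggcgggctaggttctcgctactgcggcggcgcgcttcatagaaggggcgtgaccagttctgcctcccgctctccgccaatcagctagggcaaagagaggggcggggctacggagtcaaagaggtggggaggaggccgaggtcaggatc
Ppat, chr5:76951529-76951828, minus strand, E2F sites at -211 and -158 and NRF1 core at 23, each on the opposite strand: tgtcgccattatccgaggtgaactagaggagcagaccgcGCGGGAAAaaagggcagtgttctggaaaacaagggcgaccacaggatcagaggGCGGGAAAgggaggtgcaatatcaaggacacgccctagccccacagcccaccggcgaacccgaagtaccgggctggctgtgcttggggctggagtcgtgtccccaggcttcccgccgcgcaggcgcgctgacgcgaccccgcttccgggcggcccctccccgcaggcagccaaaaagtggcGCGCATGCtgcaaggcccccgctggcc
Atic, chr1:71556906-71557205, plus strand, E box at -7: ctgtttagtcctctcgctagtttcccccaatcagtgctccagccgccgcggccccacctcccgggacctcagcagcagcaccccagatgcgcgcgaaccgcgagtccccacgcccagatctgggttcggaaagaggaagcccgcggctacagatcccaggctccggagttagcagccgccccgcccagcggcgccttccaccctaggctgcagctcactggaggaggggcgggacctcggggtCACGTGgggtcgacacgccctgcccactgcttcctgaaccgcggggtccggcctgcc
Impdh2, chr9:108560186-108560485, plus strand, E box at -110: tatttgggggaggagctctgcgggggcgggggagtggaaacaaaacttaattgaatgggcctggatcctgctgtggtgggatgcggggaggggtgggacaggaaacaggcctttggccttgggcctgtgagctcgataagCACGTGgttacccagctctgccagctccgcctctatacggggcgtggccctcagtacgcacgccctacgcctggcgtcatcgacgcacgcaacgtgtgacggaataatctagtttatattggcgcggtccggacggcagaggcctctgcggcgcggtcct
The windows of Cad, Umps, Gart and Adsl held none of these letters, so no motif was common to the genes. On chromosome 5, the start of Paics on the plus strand lay 276 bases before that of Ppat on the minus strand, so that the opening stretches of the transcripts overlap on opposite strands.

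Of the 10 enzyme genes, all but Paics were higher in SB28 cells than in astrocytes, both without and with mKate2. By edgeR's quasi-likelihood test across all genes, 9 of 10 passed an adjusted p of 0.05 in mKate2- cells against astrocytes, in which 29.3% of the 13356 genes tested were called higher. In mKate2+ cells against astrocytes, again all but Paics passed, and there 28.0% of 13342 genes were called higher. The fold change was above 2 for 7 of the 10 in each comparison, compared with 11.5% and 12.2% of all genes. The median log2 fold change of the 10 genes was 1.14 in mKate2- cells and 1.24 in mKate2+ cells, whereas the medians over all genes tested were -0.04 and -0.02. These comparisons share the 3 astrocyte libraries and are not independent of each other. For each of the 10 genes, the lowest SB28 library lay above the highest astrocyte library in CPM, also for Paics, which did not pass the test. The share of all genes that separate in this way was not computed. In mKate2- cells against astrocytes, 8425 of 13356 genes were called in either direction, so separation alone does not set these genes apart. Added together, the 10 genes took 999, 1028 and 875 CPM in the astrocyte libraries, 1861, 1780 and 1979 CPM in the mKate2- libraries and 1945, 1749 and 2018 CPM in the mKate2+ libraries.

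**Figure D1:**
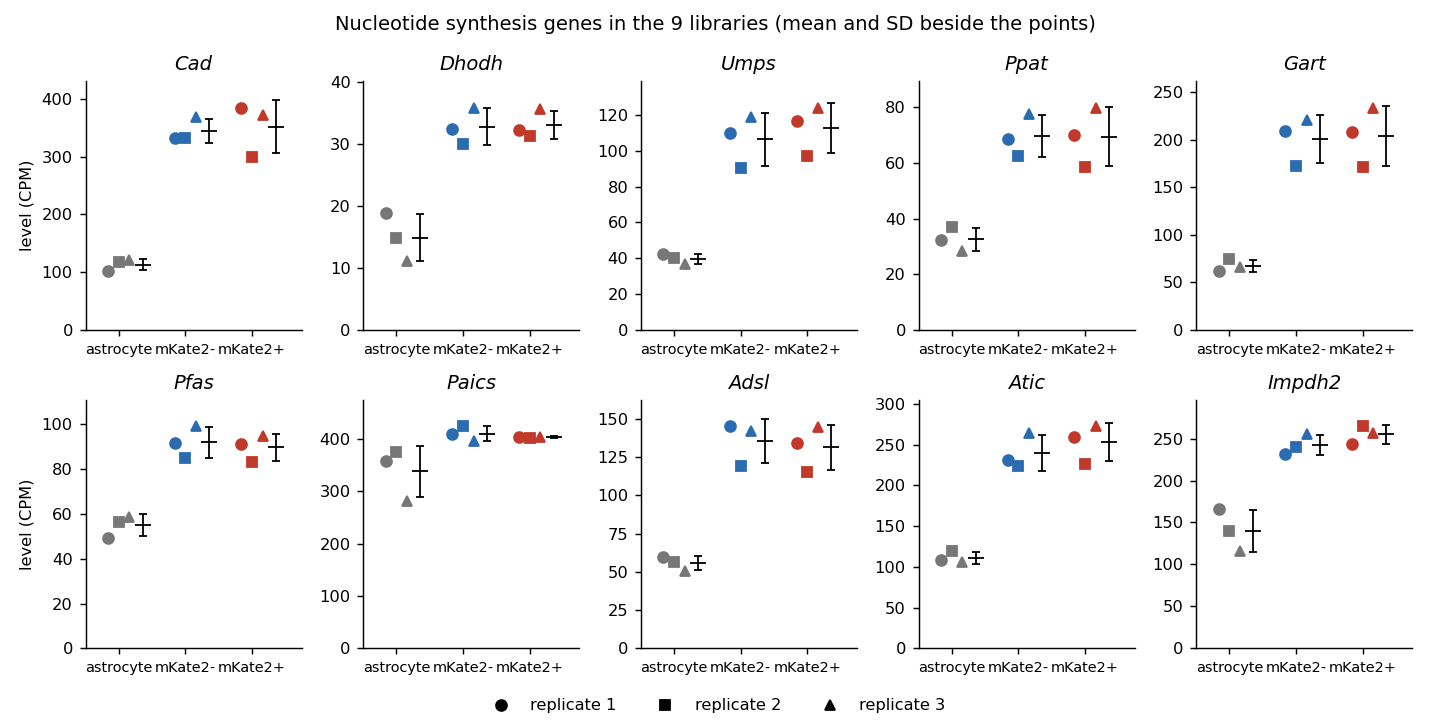
Level in CPM (vertical axis, from 0) of each of the 10 genes in the 9 libraries, with 1 symbol per replicate number and the mean and SD of 3 libraries beside the points. SB28 points lie above astrocyte points for each gene, in proportion by the least for Paics, and the mKate2- and mKate2+ points overlap for each gene.

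The pyrimidine pathway showed the highest median, a log2 value of 1.43 over its 3 genes in mKate2- cells and of 1.57 in mKate2+ cells. Cad (ENSMUSG00000013629, chr5:31054780-31078479) encodes the multifunctional protein that carries out the opening steps of pyrimidine synthesis from glutamine to dihydroorotate. Its level was 102, 117 and 120 CPM in astrocytes, 332 (replicate 1), 333 (replicate 2) and 369 CPM (replicate 3) in mKate2- cells, and 384, 299 and 372 CPM in mKate2+ cells. The tumor cell libraries were all well above the astrocytes, and mKate2+ replicate 2 was the lowest of the 6. Cad was 3.08-fold higher in mKate2- cells than in astrocytes (log2 1.63 ± 0.10, with ± the SE here and for each log2 fold change, adjusted p = 1.64e-05), and in mKate2+ cells the log2 fold change was 1.71 ± 0.13 (adjusted p = 4.27e-05). Only 3.90% of all genes tested had a larger log2 fold change in mKate2- cells against astrocytes.

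Dhodh (ENSMUSG00000031730, chr8:109591343-109608673), the enzyme of the inner mitochondrial membrane that oxidizes dihydroorotate and passes the electrons to ubiquinone, had the lowest level of the 10 per exonic length. It stood at 18.8, 14.8 and 11.1 CPM in astrocytes, at 32.4, 29.9 and 35.8 CPM in mKate2- cells and at 32.3, 31.3 and 35.6 CPM in mKate2+ cells. Its astrocyte libraries were the most spread in relation to their mean, at 14.9 ± 3.84 CPM (SD, n = 3), and did not reach the tumor cell levels. The log2 fold change against astrocytes was 1.15 ± 0.21 in mKate2- cells (adjusted p = 0.00208) and 1.22 ± 0.21 in mKate2+ cells (adjusted p = 0.00186). Between mKate2+ and mKate2- cells, Dhodh differed by a log2 fold change of 0.07, with a 95% interval from -0.16 to 0.29.

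Umps (ENSMUSG00000022814, chr16:33954782-33967038), which joins orotate to PRPP and decarboxylates the product to uridine monophosphate, ranged from 36.8 to 42.6 CPM in astrocytes and from 90.2 to 124 CPM in SB28 cells. It was 2.70-fold higher in mKate2- cells (log2 1.43 ± 0.13, adjusted p = 8.08e-05) and 2.97-fold higher in mKate2+ cells (log2 1.57 ± 0.13, adjusted p = 6.07e-05). Replicate 2 was the lowest library of both tumor cell populations, and replicate 3 the highest.

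Of the 6 genes that lead to IMP, 5 rose in both tumor cell populations, compared with 29.3% and 28.0% of all genes. Their log2 fold changes spread more than those of the pyrimidine genes, from 0.29 to 1.60 in mKate2- cells against astrocytes. Ppat (ENSMUSG00000029246, chr5:76913249-76951578) commits PRPP to purine synthesis and is inhibited by the purine nucleotides at the end of the pathway. Ppat was at 32.4, 36.8 and 28.5 CPM in astrocytes, at 68.8, 62.5 and 77.6 CPM in mKate2- cells and at 70.1, 58.5 and 79.9 CPM in mKate2+ cells. The groups of astrocyte and tumor cell libraries were far from overlapping, and the log2 fold change was 1.11 ± 0.14 in mKate2- cells (adjusted p = 0.000306) and 1.16 ± 0.15 in mKate2+ cells (adjusted p = 0.00051).

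Gart (ENSMUSG00000022962, chr16:91621186-91646952), a single protein with several activities of the middle of the pathway, was the purine gene with the largest difference. Its level was 61.5, 74.2 and 65.9 CPM in astrocytes, 209, 172 and 221 CPM in mKate2- cells, and 209 (replicate 1), 171 (replicate 2) and 234 CPM (replicate 3) in mKate2+ cells. The lowest tumor cell library still lay far above the highest astrocyte library. Gart was 3.02-fold higher in mKate2- cells (log2 1.60 ± 0.13, adjusted p = 3.91e-05) and 3.20-fold higher in mKate2+ cells (log2 1.68 ± 0.14, adjusted p = 6.26e-05). An antisense gene, Gm15964, covers 19.7% of the exonic bases of Gart, and whether reads were assigned by strand is not given in the sources used here. Gm15964 averaged at most 1.35 CPM in any group, which does not show whether reads in the shared bases were left uncounted for Gart.

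Pfas (ENSMUSG00000020899, chr11:68985697-69008460), which transfers an amide from glutamine to the growing purine ring, showed a smaller difference than Gart. Pfas ranged from 49.3 to 58.6 CPM in astrocytes and from 83.1 to 99.0 CPM in SB28 cells, and its log2 fold change was 0.76 ± 0.10 in mKate2- cells (adjusted p = 0.000491) and 0.78 ± 0.11 in mKate2+ cells (adjusted p = 0.000736). Adsl (ENSMUSG00000022407, chr15:80948490-80970946), a lyase that works both on the way to IMP and in the making of AMP, ranged from 50.8 to 59.5 CPM in astrocytes and from 116 to 145 CPM in SB28 cells. Its log2 fold changes were 1.30 ± 0.12 (adjusted p = 8.95e-05) and 1.31 ± 0.13 (adjusted p = 0.000126). Atic (ENSMUSG00000026192, chr1:71557150-71579631), which closes the purine ring to give IMP, ranged from 106 to 119 CPM in astrocytes and from 224 to 273 CPM in SB28 cells. Atic was 2.18-fold higher in mKate2- cells (log2 1.13 ± 0.11, adjusted p = 9.33e-05) and 2.40-fold higher in mKate2+ cells (log2 1.26 ± 0.12, adjusted p = 9.85e-05).

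Paics was the exception. Paics (ENSMUSG00000029247, chr5:76951307-76967509), which adds carbon dioxide and then aspartate to the purine intermediate, was already high in astrocytes, at 358, 374 and 282 CPM. It stood at 409, 424 and 396 CPM in mKate2- cells and at 404.3, 401.4 and 404.1 CPM in mKate2+ cells. The tumor cell libraries lay close together and just above the astrocytes, of which replicate 3 was the lowest. The log2 fold change was 0.29 ± 0.13 in mKate2- cells (95% interval -0.02 to 0.60, adjusted p = 0.0949) and 0.33 ± 0.14 in mKate2+ cells (-0.01 to 0.66, adjusted p = 0.0812), so neither passed the threshold, and a difference of up to 1.5-fold was within both intervals. In a fit to all 9 libraries, the second comparison passed, with a log2 fold change of 0.33 (adjusted p = 0.0346).

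Impdh2 (ENSMUSG00000062867, chr9:108560286-108565584), the rate-limiting enzyme from IMP to guanine nucleotides, was at 166, 139 and 116 CPM in astrocytes. Its level was 231, 240 and 255 CPM in mKate2- cells and 243, 265 and 257 CPM in mKate2+ cells. The tumor cell libraries were again all above the astrocytes, with a log2 fold change of 0.80 ± 0.15 in mKate2- cells (adjusted p = 0.0026) and 0.94 ± 0.16 in mKate2+ cells (adjusted p = 0.00199). For Impdh2 alone of the 10 genes, mKate2+ replicate 2 was not the lowest mKate2+ library in CPM.

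**Figure D2:**
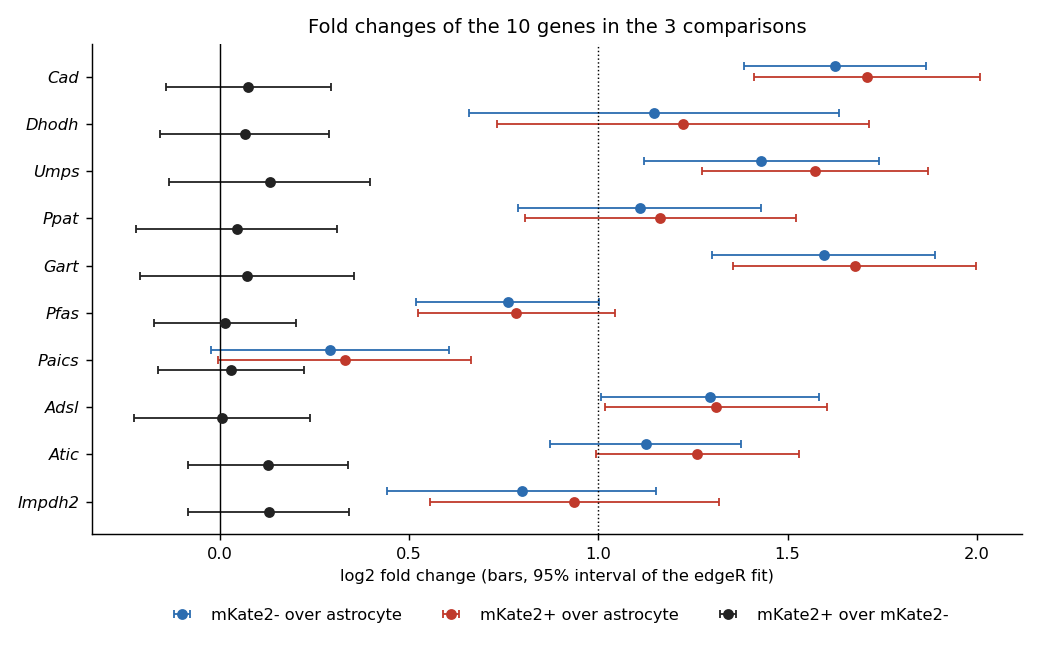
log2 fold change (horizontal axis) of each gene in the 3 comparisons, as estimated with edgeR, with bars for the 95% interval, a solid line at 0 and a dotted line at a fold change of 2. The comparisons of SB28 cells with astrocytes lie right of 0 with intervals that reach it only for Paics, and each interval of mKate2+ against mKate2- cells includes 0.

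mKate2+ and mKate2- tumor cells were then compared with each other, which is the comparison closest to the study's question. None of the 10 genes passed the threshold. Adjusted p values from edgeR ran from 0.923 to 0.995, unadjusted p values from 0.2 to 0.958, and 0 of the 10 had an unadjusted p below 0.05, compared with 2.03% of the 11854 genes tested. The adjusted threshold called 0% of all genes, and DESeq2 also called 0. The study counted genes that rose by more than 1.5-fold with an unadjusted p below 0.05 and a count above 50. Read as a mean normalized count and applied in either direction, these criteria held for 0.363% of all genes and for 0 of the 10. The log2 fold changes lay between 0.01 for Adsl and 0.13 for Umps, with a median of 0.07 for the 10 genes and 0.00 for all genes. All 10 were above 0, but with the upper-quartile scaling Adsl was not, and without mKate2- replicate 2 or without mKate2+ replicate 3 only 6 of the 10 were. The direction also depended on the scale. In CPM, the ratio of mean mKate2+ to mean mKate2- level was 0.9984 for Ppat, 0.9754 for Pfas, 0.9845 for Paics and 0.9715 for Adsl, and above 1 for the others.

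The intervals bound how much the populations could differ. The widest upper bound was that of Umps, at a log2 fold change of 0.40, and the lowest lower bound that of Adsl, at -0.23. The 1.5-fold change of the study's criteria was thus outside the 95% interval of each gene. Without mKate2+ replicate 2, the median log2 fold change was 0.09 and again 0 genes were called. Against the astrocytes, the mKate2+ cells without that library had 9 of the 10 genes called and a median of 1.28. Over all genes, 7442 of 13286 were called in either direction in that fit, with a median of -0.032.

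Replicates of the tumor cells varied together. In both populations, replicate 2 was the lowest library for Dhodh, Umps, Ppat, Gart, Pfas, Adsl and Atic, 7 of the 10 genes, compared with 24.4% of all genes tested. Replicate 3 was the highest library of both populations for 6 of the 10 genes, compared with 18.6% of all genes. After TMM scaling, which lowers the effective size of the mKate2+ replicate 2 library by a factor of 0.921, the counts were 6 and 6 of the 10, compared with 19.0% and 16.9% of all genes. Cad, Paics and Impdh2 did not have replicate 2 lowest in both. The cause was not tested, and replicate numbers are not stated to mark a shared co-culture.

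Between genes, levels can be compared only per length, as CPM per kilobase of exon. Paics was the most abundant in each group, at 108 ± 15.7 CPM per kilobase (SD, n = 3) in astrocytes, 131 ± 4.57 in mKate2- cells and 129 ± 0.527 in mKate2+ cells. Impdh2 followed, at 45.6, 78.7 and 82.9 CPM per kilobase. In the tumor cells Cad and Gart came next, with overlapping libraries, then Umps, which overlapped Gart, and Atic, which overlapped Umps, and then Adsl, Ppat, Pfas and Dhodh, each apart from the next. In the astrocytes, Atic, Cad, Gart and Umps lay between 11.4 and 13.9 CPM per kilobase, each overlapping its neighbour. Dhodh was the lowest in each group, at 2.35 CPM per kilobase in astrocytes and 5.17 and 5.23 in tumor cells. Dividing by the length of the transcript with the longest coding sequence instead, a choice made after seeing the data, kept Paics and Impdh2 in front, left Atic in the third place in astrocytes and moved it up to that place in tumor cells, and put Pfas below Dhodh in tumor cells.

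**Figure D3:**
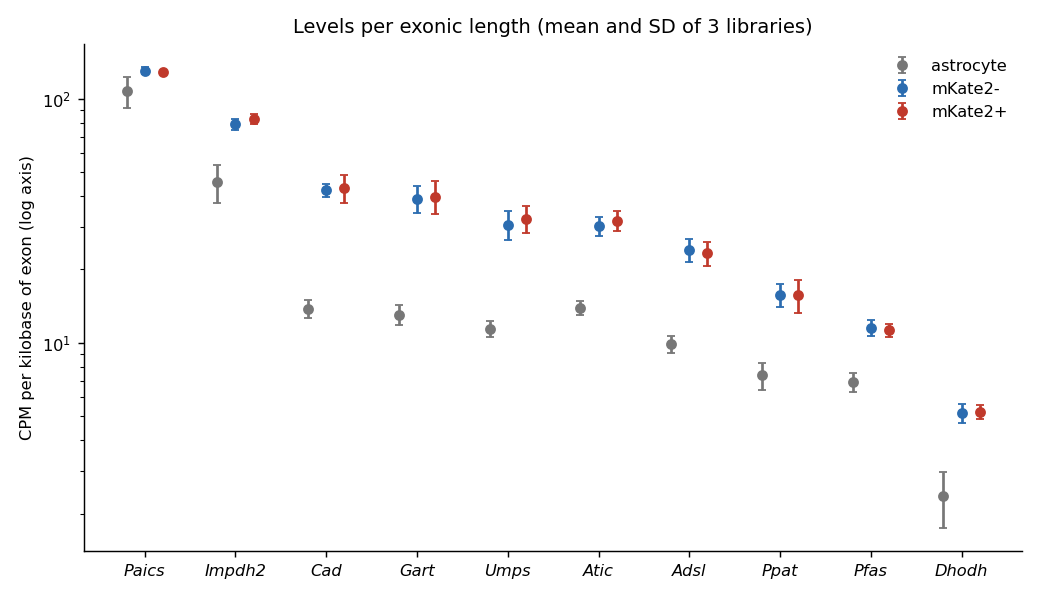
Level in CPM per kilobase of exon (vertical log axis) of the 10 genes, ordered by their level in mKate2- cells, as the mean and SD of 3 libraries per group. Paics and Impdh2 are the most abundant in each group and Dhodh the least, and astrocyte and tumor cell points are closest for Paics.

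Because Ppat and Paics start next to each other, their ratio was followed as well. Per kilobase, Paics exceeded Ppat by 15.6, 14.3 and 13.9 times in the astrocyte libraries, by 8.38, 9.56 and 7.18 times in mKate2- cells and by 8.12, 9.66 and 7.13 times in mKate2+ cells. The ratio was thus lower in each tumor cell library than in each astrocyte library, and the tumor cell populations overlapped. An exact two-sided permutation test gave p = 0.1, the smallest that 3 against 3 libraries allow, for both comparisons with astrocytes (adjusted p = 0.15 over 12 ratio tests) and p = 0.9 between mKate2+ and mKate2- cells. The genes share 272 exonic bases on opposite strands, 6.15% of Ppat and 8.67% of Paics. Without use of the strand, reads from these bases could be left uncounted or given to the wrong gene. Impdh2 exceeded its paralog Impdh1 by 3.14 ± 0.152 times (SD, n = 3) in astrocytes, 2.18 ± 0.0985 times in mKate2- cells and 2.25 ± 0.143 times in mKate2+ cells, with the same exact permutation p values of 0.1 against astrocytes and p = 0.5 between the tumor cell populations.

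**Figure D4:**
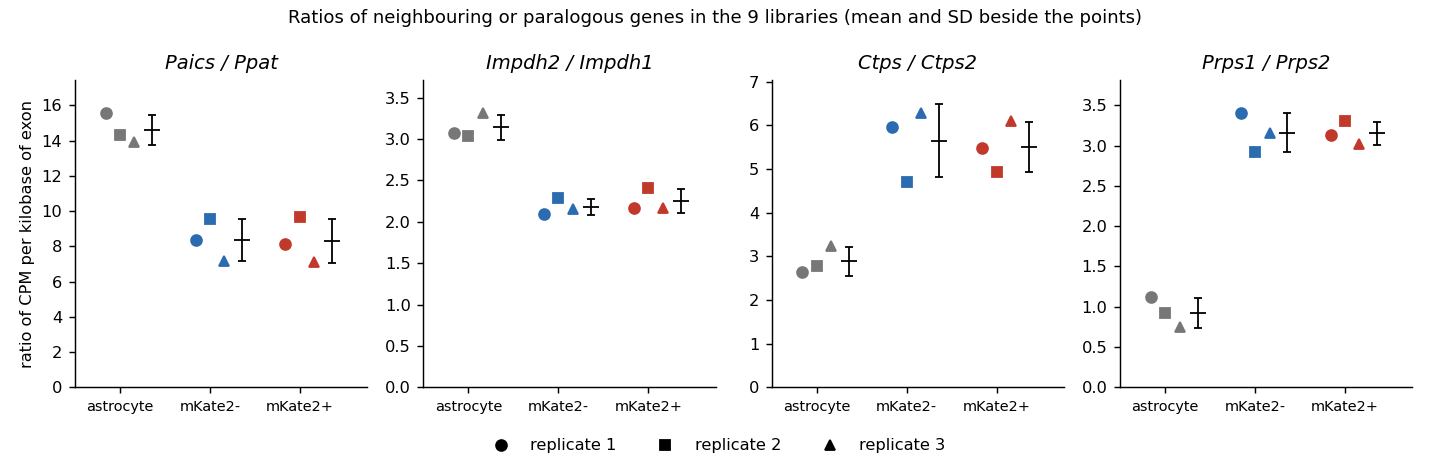
Ratio of CPM per kilobase of exon (vertical axes, from 0) for the neighbours Paics and Ppat and for the paralog pairs Impdh2 and Impdh1, Ctps and Ctps2, and Prps1 and Prps2, with 1 symbol per replicate number and the mean and SD of 3 libraries beside the points. The first 2 ratios are lower and the other 2 higher in the 6 SB28 libraries than in the 3 astrocyte libraries, without overlap.

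The genes that surround the pathway were taken from lists of 74 other nucleotide genes, of which 73 were in the table and 63 were tested against astrocytes. In mKate2- cells, 30 of the 63 were called higher and 11 lower, compared with 29.3% and 33.8% of all genes, and in mKate2+ cells 31 were called higher and 12 lower, compared with 28.0% and 32.1%. Without mKate2+ replicate 2, 29 and 11 were called in mKate2+ cells. Between mKate2+ and mKate2- cells, 0 of 60 were called, and 1 had an unadjusted p below 0.05. That gene, Guk1, the GMP kinase, was singled out after its value was seen, with a log2 fold change of 0.30 (unadjusted p = 0.0386, adjusted p = 0.923 with edgeR).

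Upstream, 3 of the 5 genes of PRPP synthesis that could be tested rose in mKate2- cells, compared with 29.3% of all genes. Prps1, a PRPP synthetase, was at 41.5, 50.2 and 42.4 CPM in astrocytes and at 138 (replicate 1), 116 (replicate 2) and 138 CPM (replicate 3) in mKate2- cells, which gave a log2 fold change of 1.56 ± 0.12 (adjusted p = 3.43e-05). Its paralog Prps2 was at 72.2, 106 and 110 CPM in astrocytes and between 71.2 and 91.5 CPM in tumor cells, with a log2 fold change of -0.25 ± 0.15 in mKate2- cells (adjusted p = 0.194). The ratio of Prps1 to Prps2 per kilobase was therefore 0.928 ± 0.185 (SD, n = 3) in astrocytes and 3.16 ± 0.245 in mKate2- cells. Prps1l3, whose sequence is nearly that of Prps1 and whose counts are uncertain for that reason, had a log2 fold change of 1.32. Of the inhibitory partner proteins of the synthetases, Prpsap2 had a log2 fold change of 0.32 (adjusted p = 0.0469) and Prpsap1 one of 0.26 (adjusted p = 0.0755) in mKate2- cells. In mKate2+ cells the order of these 2 was the reverse, with adjusted p values of 0.0941 and 0.0464, and the difference between the populations was not significant for either (adjusted p = 0.941 and 0.931). Prps1l1 was close to 0 in all 9 libraries.

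Beyond IMP, 2 of the 4 other genes of the guanine and adenine branches rose and 1 fell, compared with 29.3% and 33.8% of all genes. Impdh1 and Gmps, which make guanine nucleotides with Impdh2, rose in mKate2- cells, with log2 fold changes of 1.32 ± 0.17 (adjusted p = 0.00039) and 1.17 ± 0.10 (adjusted p = 5.43e-05). Gmps was at 94.9, 98.9 and 88.6 CPM in astrocytes and between 198 and 230 CPM in tumor cells. The enzyme that turns IMP towards AMP comes from Adss and Adssl1. Adss was at 252 ± 33.5 CPM (SD, n = 3) in astrocytes and 229 ± 10.9 CPM in mKate2- cells, with overlapping libraries and an adjusted p of 0.399, whereas Adssl1, known from muscle, fell by 2.15 on the log2 scale (adjusted p = 0.00318). Adssl1 was spread in astrocytes, at 163, 131 and 47.1 CPM, and lay between 20.0 and 37.0 CPM in tumor cells.

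The genes for CTP synthesis from UTP moved in opposite directions. Their summed level was 182 ± 12.3 CPM (SD, n = 3) in astrocytes and 206 ± 14.0 CPM in mKate2- cells. Ctps was at 123 (replicate 1), 126 (replicate 2) and 117 CPM (replicate 3) in astrocytes and between 132 and 180 CPM in tumor cells, with a log2 fold change of 0.45 ± 0.11 in mKate2- cells (adjusted p = 0.00791). Ctps2 fell, by 0.53 ± 0.14 on the log2 scale (adjusted p = 0.0102), from 60.7 to 41.6 CPM on average. Per kilobase, the ratio of Ctps to Ctps2 was 2.88 ± 0.323 (SD, n = 3) in astrocytes, 5.65 ± 0.834 in mKate2- cells and 5.51 ± 0.577 in mKate2+ cells.

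All 8 genes tested of deoxynucleotide synthesis were called higher in both tumor cell populations against astrocytes, compared with 29.3% and 28.0% of all genes. Without mKate2+ replicate 2, 7 of the 8 were called in mKate2+ cells, and Rrm2b was not. On the log2 scale their median was 1.36 in mKate2- cells, and 6 of the 8 were above 2-fold. Rrm1, the large subunit of ribonucleotide reductase, was at 132, 135 and 153 CPM in astrocytes and between 293 and 370 CPM in tumor cells (log2 1.26 ± 0.10 in mKate2- cells, adjusted p = 4.47e-05). The small subunit Rrm2 had a log2 fold change of 1.16, and the alternative small subunit Rrm2b one of 0.85 (adjusted p = 0.0149). Tyms, which makes thymidylate, had a log2 fold change of 1.68 (adjusted p = 4.35e-05). Dut, Dctd and Dtymk, which supply and use deoxyuridine and thymidine monophosphate, had log2 fold changes of 1.46, 1.45 and 0.73 (adjusted p = 5.4e-05, 0.000229 and 0.00231).

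Salvage, breakdown and transport were mixed, beside 29.3% of all genes called higher and 33.8% called lower. Of 6 purine salvage genes tested, 3 were called higher in mKate2- cells, Dck with a log2 fold change of 0.78 and Aprt with one of 0.95 among them, and 0 lower. Pyrimidine salvage had 4 of 9 called higher and 2 lower. In mKate2+ cells these were 4 and 1, compared with 28.0% and 32.1% of all genes, and 3 and 2 without mKate2+ replicate 2. The fit without that library called 7442 of all 13286 genes in either direction. Tk1, the thymidine kinase of dividing cells, rose from 31.2 ± 3.17 to 90.6 ± 9.13 CPM (SD, n = 3; log2 1.55, adjusted p = 5.28e-05). Uridine-cytidine kinases moved apart, Uck2 with a log2 fold change of 0.49 and Uck1 with one of -0.47, and Upp2, at 4.45 CPM in astrocytes, was called lower at -0.75 (adjusted p = 0.041). Among 14 nucleotide kinases, 5 were called higher and 3 lower, compared with the same 29.3% and 33.8%. Nme1 led those that were higher (log2 1.21), and the cytosolic Ak1 (log2 -1.06) was among those that were lower. The interferon-inducible mitochondrial kinase Cmpk2, also called lower, averaged 6.64 CPM in astrocytes and held 1 to 6 counts per tumor cell library.

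In the breakdown of purines, 1 of 7 genes was called higher, Samhd1 (log2 0.96), which cleaves deoxynucleotides, and 1 lower, Ampd3 (log2 -2.42), which deaminates AMP. In mKate2+ cells, 1 was called higher and 3 lower, compared with 28.0% and 32.1% of all genes, and without mKate2+ replicate 2, 1 and 1. In that of pyrimidines, 2 of 4 were called higher and 1 lower. Nt5c3, a nucleotidase, and Nt5c3b had log2 fold changes of 1.08 and 0.31. Dpyd, the enzyme that starts uracil and thymine breakdown, was at 16.8, 20.2 and 25.1 CPM in astrocytes and at most 0.614 CPM in tumor cells, where it held 6 to 21 counts per library. Of 4 nucleoside transporters tested, Slc29a2 was called higher (log2 0.91) and Slc29a3 lower (log2 -0.90), as was Slc29a4, which averaged 4.46 CPM in astrocytes and held 0 to 6 counts per tumor cell library. Dpyd, Slc29a4 and Cmpk2 passed the filter on low counts through the astrocytes alone, so a difference was built into their being tested.

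**Figure D5:**
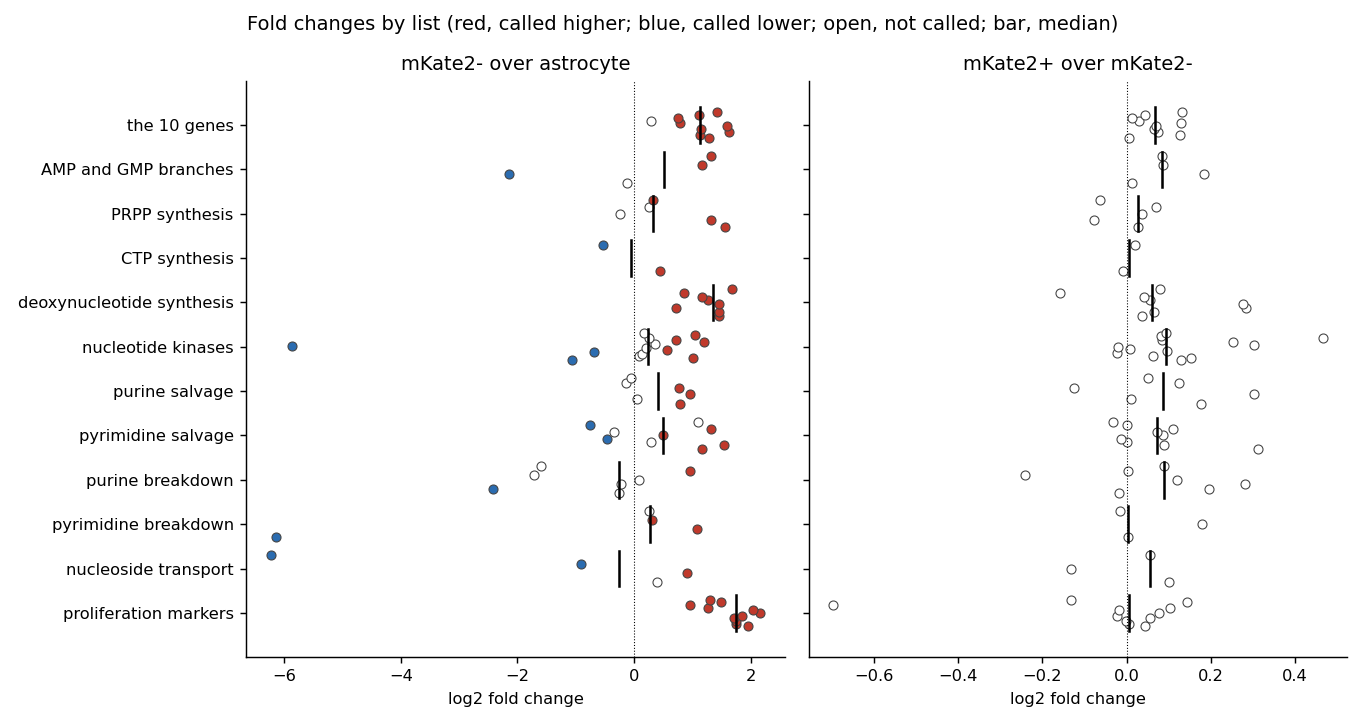
log2 fold change (horizontal axes, on different scales) of the 10 genes and of each list of related genes in mKate2- cells against astrocytes (left) and in mKate2+ against mKate2- cells (right). Each point is a gene, filled red where called higher and blue where called lower by edgeR at an adjusted p below 0.05, with a bar at the median of the list. The median is 1.14 for the 10 genes, 1.36 for deoxynucleotide synthesis and 1.75 for proliferation markers on the left, and there is no filled point on the right.

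Proliferation markers and a set of Myc network genes were measured in the same libraries. All 11 proliferation markers were called higher in mKate2- cells than in astrocytes, and 10 of 11 in mKate2+ cells, compared with 29.3% and 28.0% of all genes. Their median in mKate2- cells was 1.75 on the log2 scale. The exception was Mki67, named after its value was seen, at 107 (replicate 1), 46.0 (replicate 2) and 114 CPM (replicate 3) in mKate2+ cells and 59.7, 43.6 and 128 CPM in astrocytes. Its log2 fold change in mKate2+ cells was 0.27 ± 0.44 (adjusted p = 0.612) and, without mKate2+ replicate 2, 0.57 ± 0.42 (adjusted p = 0.284), with 10 of 11 markers still called higher. In mKate2- cells Mki67 was at 148 (replicate 1), 134 (replicate 2) and 161 CPM (replicate 3), so that the tumor cell populations did not overlap. By edgeR its log2 fold change in mKate2+ against mKate2- cells was -0.70 (unadjusted p = 0.0332, adjusted p = 0.923) and, without mKate2+ replicate 2, -0.41 (unadjusted p = 0.00077, adjusted p = 1), past the unadjusted but not the adjusted threshold. Among all genes, 2.03% had an unadjusted p below 0.05 with all 6 libraries. Over the 11 markers, the median log2 fold change between the tumor cell populations was 0.006, with 6 above 0, 5 below and 0 called. The summed level of the 11 markers, of which Top2a was the most abundant, was 868, 869 and 1083 CPM in astrocytes, 2829, 2743 and 3052 CPM in mKate2- cells and 2929, 2360 and 2971 CPM in mKate2+ cells. Mcm6 and Mcm5, subunits of the replicative helicase, had log2 fold changes of 2.04 (adjusted p = 8.83e-06) and 2.17 (adjusted p = 9.41e-06) in mKate2- cells. These markers moved with the 10 enzyme genes, and their part in the difference was not tested.

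Against astrocytes, 2 of the 7 regulators were called higher in mKate2- cells and 4 were called lower, compared with 29.3% and 33.8% of all genes. Myc was at 33.5, 54.0 and 38.9 CPM in astrocytes, at 125 (replicate 1), 132 (replicate 2) and 127 CPM (replicate 3) in mKate2- cells and at 123, 110 and 123 CPM in mKate2+ cells. The tumor cell libraries did not overlap the astrocytes (log2 1.62 ± 0.17 in mKate2- cells, adjusted p = 0.000128), and between the tumor cell populations the mKate2+ libraries all lay below the mKate2- libraries in CPM by a small margin that did not pass the test (log2 -0.06, 95% interval -0.22 to 0.10, adjusted p = 0.934). Mycn went the other way, at 19.2, 10.1 and 10.8 CPM in astrocytes and at most 0.184 CPM, or 0 to 5 counts, in tumor cell libraries. It was called lower but passed the filter through the astrocytes alone. Mnt, a repressor that pairs with Max, had a log2 fold change of 0.52, and Mxd1, another such repressor, one of -1.80. Since each sample is a bulk of sorted cells, more cells in cycle and more RNA of these genes per cell cannot be told apart.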

How the data were processed

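The deposited values are counts of reads per gene, which the authors made from paired-end reads by trimming with Trimmomatic 0.36, mapping to GRCm38 with STAR 2.5.2b and counting with featureCounts of Subread 1.5.2. They carry no normalization, and the annotation release and strand setting are not given in the sources used here. Libraries were taken by their names, since the sort gates in the labels give CellTrace Violet to the tumor cells and the methods give it to the astrocytes. Names, positions and exonic lengths came from GENCODE M21, and promoter windows from RefSeq.

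Each comparison used its 6 libraries, TMM normalization, genes above 1 CPM in at least 2 libraries, the quasi-likelihood test of edgeR 4.0.16 in R 4.3.3 and Benjamini-Hochberg adjustment over all genes tested, with a threshold of 0.05. Standard errors were derived from that fit, as the absolute log2 fold change divided by the square root of its F statistic. The 95% intervals were built from these standard errors with a t quantile. The study names DESeq2 for tumor cells against astrocytes, and DESeq2 1.42.0 was run as an alternative. The other alternatives were upper-quartile scaling, no filter, a minimum of 10 counts per library, all 9 libraries fitted together, a replicate block, removal of a gene length trend (loess, span 0.3, prior count 2) and leaving out each library. The procedure was tested on simulated data.

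The genes and lists were chosen with earlier results of these data known. Named were the 10 genes, each gene of the PRPP, AMP and GMP, CTP and deoxynucleotide lists, and from the other lists up to 2 genes per direction with the smallest adjusted p in mKate2- cells against astrocytes, apart from 2 genes not reported here. With 24454561 to 39287841 counts in a library, counting error was small for the 10 genes, and the spread of 3 libraries limits precision. Reads and the mKate2 transgene were not analysed here.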

Additional observations from a re-analysis of the deposited data

How the results depend on the processing

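Against astrocytes, the 10 genes gave 130 values under alternatives in each comparison. All 130 kept their direction and side of the threshold in mKate2- cells, and 129 did in mKate2+ cells, where Paics passed in the fit to all 9 libraries, with 10 of the 10 genes called. That fit called 8897 of all 13342 genes in either direction. The main fit called 8013. The log2 fold changes of the 10 genes ranged from 0.17 (Paics) to 1.70 (Gart) in mKate2- cells and from 0.19 (Paics) to 1.79 (Cad) in mKate2+ cells. Between mKate2+ and mKate2- cells, 118 of 130 kept their direction, 12 reversed and 0 passed the threshold. Adsl reversed to -0.002 with upper-quartile scaling and Paics to -0.009 with the length trend removed. Leaving out 1 library gave -0.060 to 0.120 for Ppat, -0.029 to 0.143 for Gart, -0.037 to 0.063 for Pfas, -0.016 to 0.058 for Paics and -0.077 to 0.064 for Adsl, with reversals without mKate2- replicate 2 or 3 or without mKate2+ replicate 2 or 3. The cause was not tested. With the replicate block, 9, 9 and 0 of the 10 genes were called, and over all genes 8186, 7478 and 0 in place of 8425, 8013 and 0. The numbers were not taken to pair libraries, since no source says that a number marks a shared co-culture and not every correlation was over 0.1, but a shared co-culture was not tested otherwise. The correlations of same-numbered libraries' deviations from the group means were 0.0537, 0.0418 and 0.0232 for mKate2- cells and astrocytes, -0.147, 0.0665 and 0.251 for mKate2+ cells and astrocytes, and -0.0037, 0.136 and 0.17 between the tumor cell populations. Upper-quartile scaling shifted the median of all genes to -0.118 against astrocytes in both comparisons, and the medians of the 10 genes to 1.05 and 1.14. Without a filter, 26862 and 27135 genes were tested, with all-gene medians of -0.206 and -0.186. With TMM library sizes, 1 of 30 mean levels moved by more than its SD, that of Paics in mKate2+ cells, from 403 to 417 CPM.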
